A study of Capra hircus with 12 samples.

Results

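A set of genes named for PRG4 (lubricin) and the superficial fibrous layer of joints was followed in cultured cells of the goat temporomandibular joint (TMJ). The set was taken by gene symbol, with no measured value in the rule, but was chosen with earlier results of these data known. It holds PRG4, CILP, CILP2, CLU, DPT, SCX, MKX, THY1 and ERG. Of these 9 names, 8 were analysed, among 28910 genes counted in each of 12 libraries. CLU was not analysed here.

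Lubricin is a mucin-like glycoprotein that cells at the joint surface secrete, and it lowers friction between the sliding surfaces. The cartilage of the mandibular condyle is a fibrocartilage, in which a fibrous superficial layer covers deeper layers whose cells make an aggrecan and type II collagen matrix. DPT (dermatopontin) binds decorin and helps assemble collagen fibrils. CILP and CILP2 encode cartilage intermediate layer proteins, and CILP binds growth factors. SCX (scleraxis) and MKX (mohawk) are transcription factors of tendon and ligament, and ERG is an ETS transcription factor of joint progenitors and of endothelium. THY1 encodes CD90, a surface glycoprotein of fibroblasts and mesenchymal stromal cells.

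The study asked what LOXL2, a lysyl oxidase that crosslinks collagen and elastin, does to TMJ cells exposed to the inflammatory cytokine IL-1β. Cells came from the condylar fibrocartilage of female goats aged 6 to 9 months and were used at passages 3 to 5 after digestion of the superficial layer cartilage (SLC) and the underlying layer (MLC, the middle layer). Each layer gave 3 libraries labelled IL-1β (10 ng for 1 h) and 3 labelled IL-1β + LOXL2, in which an adenovirus carrying LOXL2 had been given overnight before IL-1β. All 12 libraries were thus exposed to IL-1β, and cells without it were not analysed here. An empty adenovirus is named as the control in the study's flow cytometry methods, but neither the labels nor the culture methods say whether the sequenced cells labelled IL-1β received it, so an effect of the virus was not tested. Nothing ties libraries to separate animals, and p-values then measure the spread between these libraries, which may be technical.

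LOXL2 itself (chromosome 8, 70222328 to 70337511) came first, to test the labels. Scaled by the median of ratios over the 12 libraries, its normalized count was 11583, 11647 and 11894 in the SLC libraries labelled IL-1β and 8541, 10124 and 10387 in those labelled IL-1β + LOXL2. In MLC it was 14291, 16294 and 15189 against 15250, 14740 and 13808. In neither layer was the LOXL2 count raised where the label named LOXL2 (log2 fold change -0.27 in SLC, adjusted p = 0.106, and -0.066 in MLC, adjusted p = 0.595). Here and below, tests are edgeR's quasi-likelihood F test, p is adjusted over all genes tested by Benjamini-Hochberg, and a gene passed when its adjusted p was under 0.05. Every direction given below for LOXL2 rests on the labels alone.

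Library totals ranged from 14158607 to 28931652 counts. The rank correlation between gene counts, centred on each gene's mean over the libraries, and genomic span (start to end, introns included) ranged from 0.189 to 0.368 over the 6 IL-1β libraries. It was 0.152 and 0.0329 in the first IL-1β + LOXL2 replicate of SLC and of MLC, and between -0.373 and -0.311 in the other 4. The first IL-1β + LOXL2 replicates therefore stood apart from their groups in both layers, and the counts of genes past the threshold are given below with and without them.

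The layer labels were checked against defining genes. COL2A1 and COL9A1, collagens of hyaline cartilage, had 0 counts in all 3 SLC IL-1β libraries and between 159 and 295 counts (COL2A1) in the MLC IL-1β libraries. ACAN (aggrecan) was 894.3 ± 47.9 (SD, n = 3) in SLC and 7451 ± 825.9 (SD, n = 3) in MLC, 8.45-fold higher in MLC. SOX9, the master regulator of chondrocytes, was 4.10-fold higher in MLC. TNMD, a late marker of tendon cells, had no count in any of the 12 libraries. The endothelial markers CDH5, KDR, TIE1, CLDN5, EMCN, ESAM and ROBO4 had at most 3 counts in every library, as did the immune markers PTPRC, CD3D and CD79B. Other immune markers were counted. In the IL-1β libraries CD14 averaged 1446 normalized counts in SLC and 1994 in MLC, and CD68 averaged 108.4 and 101.2. The part of immune cells in these values was not tested.

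With IL-1β alone, 6 of the 7 that could be tested differed between the layers, where 46.9% of 13965 genes did (24.2% higher in MLC and 22.7% lower). The libraries of the layers did not overlap for the same 6, where 56.1% of genes showed no overlap. DPT and THY1 were higher in SLC, whereas CILP2, MKX, ERG and PRG4 were higher in MLC. DPT and THY1 thus lay on the side that the name of a superficial set implies. CILP2, MKX and ERG and, more weakly, PRG4 lay on the other side. Of the 7 tested, 2 were higher in SLC, beside 22.7% of all genes, so the set as a whole did not bear out its name. Low counts kept CILP out of the layer test.

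**Figure D1:**
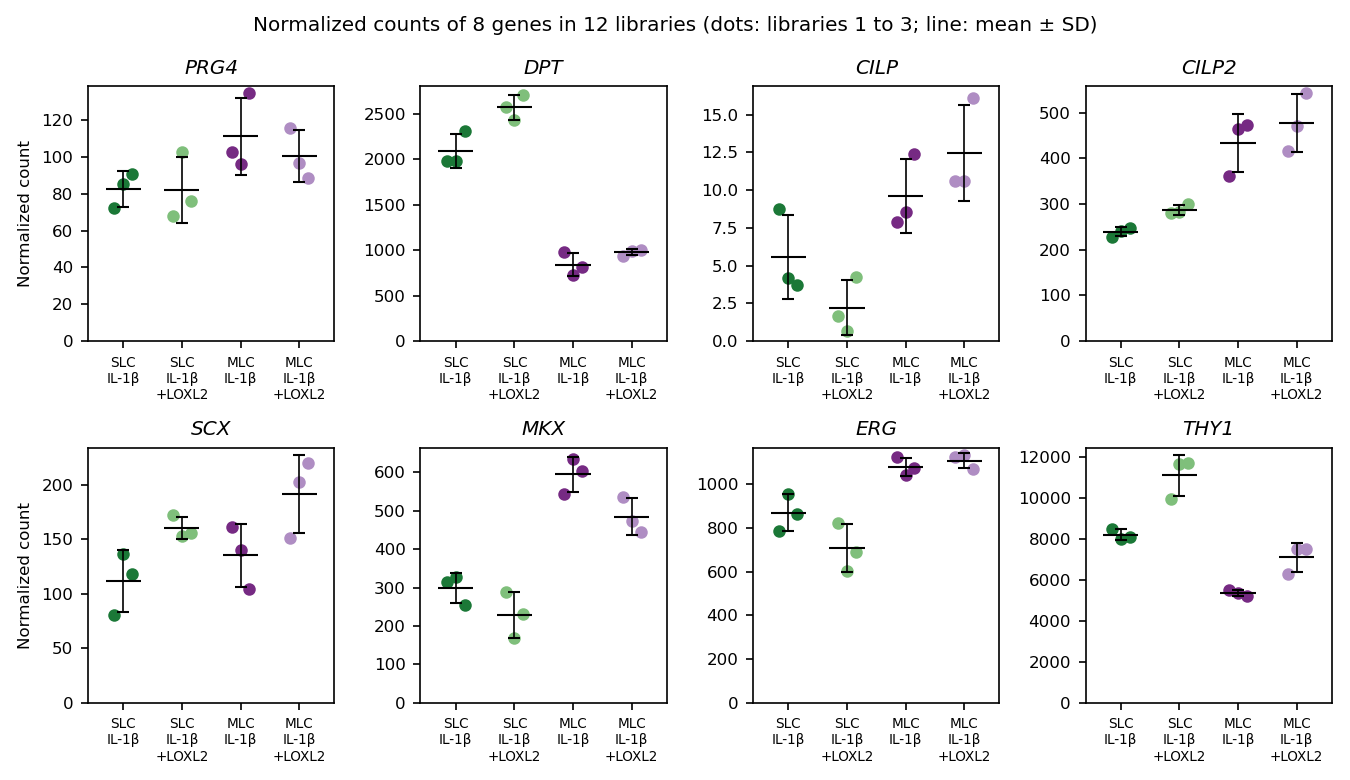
Normalized counts (vertical axes, linear, one scale per gene) of the 8 genes in the 12 libraries by layer and label, where points are libraries and bars give mean ± SD of 3 libraries. DPT and THY1 sit higher in SLC, CILP2, MKX and ERG sit higher in MLC, and the PRG4 libraries of the 4 groups lie between 68.1 and 134.8.

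PRG4 (chromosome 16, 65997803 to 66013015, protein-coding) gave 72.0, 85.2 and 90.8 normalized counts in the SLC IL-1β libraries. The MLC IL-1β libraries gave 102.3, 96.2 and 134.8. Every MLC value lay above every SLC value, with a log2 difference of 0.44 (standard error 0.17, adjusted p = 0.0466, edgeR), a 1.36-fold higher level in MLC. The call was marginal. It held in 1 of 6 fits that each left out 1 library (without the second MLC replicate), with log2 values from 0.28 to 0.54, and was lost with DESeq2's Wald test (adjusted p = 0.116), in the fit on all 12 libraries (0.134), with the replicate block (0.0535) and with the gene-span trend removed (0.085). In the libraries labelled IL-1β + LOXL2, PRG4 was 68.1, 102.3 and 76.0 in SLC and 115.8, 96.7 and 88.7 in MLC. These values overlapped, and the log2 difference of 0.30 (standard error 0.22) had an adjusted p of 0.411 with edgeR. The end of PRG4 overlaps the neighbouring TPR by 48 bases.

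Among the matrix genes, DPT (chromosome 16, 34819945 to 34856737) had the largest layer difference of the genes tested in the IL-1β libraries. It gave 1981, 1987 and 2313 normalized counts in SLC and 976.2, 725.5 and 818.9 in MLC. DPT was 2.46-fold higher in SLC (log2 fold change of MLC over SLC -1.30, standard error 0.096, adjusted p = 7.27e-08, edgeR). In the libraries labelled IL-1β + LOXL2 it was 2.61-fold higher in SLC (-1.38, standard error 0.11, adjusted p = 0.000405, edgeR), and it passed in all 6 fits that left out 1 library in each comparison. In bulk RNA, fewer cells of a type and less RNA per cell cannot be told apart.

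CILP2 (chromosome 7, 104958937 to 104968500) lay on the opposite side. The SLC IL-1β libraries gave 228.7, 241.5 and 248.4 normalized counts and the MLC IL-1β libraries gave 360.8, 465.0 and 473.8. CILP2 was 1.83-fold higher in MLC (log2 fold change 0.88, standard error 0.11, adjusted p = 1.45e-05, edgeR). With LOXL2 it was 1.67-fold higher in MLC (0.74, standard error 0.14, adjusted p = 0.0119, edgeR). Its relative CILP (chromosome 10, 89101734 to 89117515) was near the limit of detection, with 9, 5 and 4 counts in the SLC IL-1β libraries and 6, 7 and 10 counts in the MLC IL-1β libraries. In the IL-1β + LOXL2 libraries it had 2, 1 and 5 counts in SLC and 11, 8 and 16 counts in MLC. CILP passed the filter on low counts in that comparison through the MLC libraries, so its log2 difference of 2.51 (standard error 0.59, adjusted p = 0.026, edgeR) describes 8 counts against 35, and the call was lost in 4 of the 6 fits that left out 1 library.

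Of the transcription factors, MKX (chromosome 13, 36214204 to 36283554) and ERG (chromosome 1, 150560007 to 150882038) were higher in MLC, and SCX (chromosome 14, 81295505 to 81299508) showed no difference that passed the test. MKX gave 314.3, 327.6 and 254.9 normalized counts in the SLC IL-1β libraries and 544.5, 635.4 and 604.9 in the MLC IL-1β libraries. MKX was 2.02-fold higher in MLC (log2 fold change 1.01, standard error 0.10, adjusted p = 1.38e-06, edgeR), and 2.13-fold higher in the IL-1β + LOXL2 libraries (1.09, standard error 0.21, adjusted p = 0.0127, edgeR). ERG gave 787.2, 956.7 and 865.8 normalized counts in SLC and 1124, 1044 and 1074 in MLC with IL-1β. The ERG libraries of the layers did not overlap, and ERG was 1.26-fold higher in MLC (0.33, standard error 0.076, adjusted p = 0.00251, edgeR). With LOXL2 the ERG difference was 1.58-fold (0.66, standard error 0.15, adjusted p = 0.0213, edgeR).

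ERG is also a gene of endothelium, and 7 of the 12 endothelial markers had at most 3 counts in every library. The 12 endothelial markers summed to between 299.7 and 323.4 normalized counts in the SLC IL-1β libraries and between 569.1 and 616.0 in the MLC IL-1β libraries. EGFL7, VWF and TEK were the 3 that could be tested. EGFL7 was 2.07-fold and VWF 2.40-fold higher in MLC (adjusted p = 4.3e-07 and 0.000287, edgeR), whereas TEK was 1.76-fold higher in SLC (adjusted p = 0.0431, edgeR). The part of endothelial cells in the ERG difference was not tested.

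SCX gave 80.8, 136.2 and 117.7 normalized counts in SLC and 161.4, 140.0 and 103.9 in MLC with IL-1β, and these values overlapped (log2 fold change 0.28, standard error 0.20, adjusted p = 0.255, edgeR). With LOXL2 the difference was 0.26 (standard error 0.19, adjusted p = 0.40, edgeR). SCX lies within the span of BOP1, a ribosome biogenesis gene, and reads of the pair can be told apart only as far as the counting allowed. BOP1 itself was higher in MLC with IL-1β (0.44, adjusted p = 9.89e-05, edgeR).

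At the cell surface, THY1 (chromosome 15, 52381373 to 52387354) gave 8488, 8002 and 8091 normalized counts in the SLC IL-1β libraries. The MLC IL-1β libraries gave 5497, 5370 and 5223. The layers were well apart, and THY1 was 1.51-fold higher in SLC (log2 fold change of MLC over SLC -0.59, standard error 0.057, adjusted p = 1.11e-06, edgeR). With LOXL2 THY1 was 1.55-fold higher in SLC (-0.63, standard error 0.13, adjusted p = 0.016, edgeR).

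The layer comparisons with IL-1β and with LOXL2 used different libraries, which are not said to come from different cultures, and gave the same direction for each of the 7 genes tested in both. With LOXL2, 6 of the 8 tested passed (CILP, CILP2, MKX and ERG higher in MLC, DPT and THY1 higher in SLC), where 16.1% of 14085 genes did (9.27% higher in MLC and 6.83% lower) and 27.6% did with the replicate number as a block, which left the same count of 6. The layers did not overlap for 6, where 35.1% of genes showed no overlap. CILP entered this count through the MLC libraries where it is higher, and with at least 10 counts required in every library 5 genes passed, where 14.0% of 12929 genes did. The number of these that passed fell to between 1 and 6 when 1 library was left out, and the call was lost in 3 of 6 such fits for CILP2 and MKX and in 4 of 6 for THY1 and ERG. All 6 passed without the first SLC IL-1β + LOXL2 replicate, where 32.9% of genes passed. Only DPT and CILP2 passed without the first MLC IL-1β + LOXL2 replicate, where 9.78% of genes did. Layer and any difference in how the cells of each layer were isolated or sequenced cannot be told apart.

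**Figure D2:**
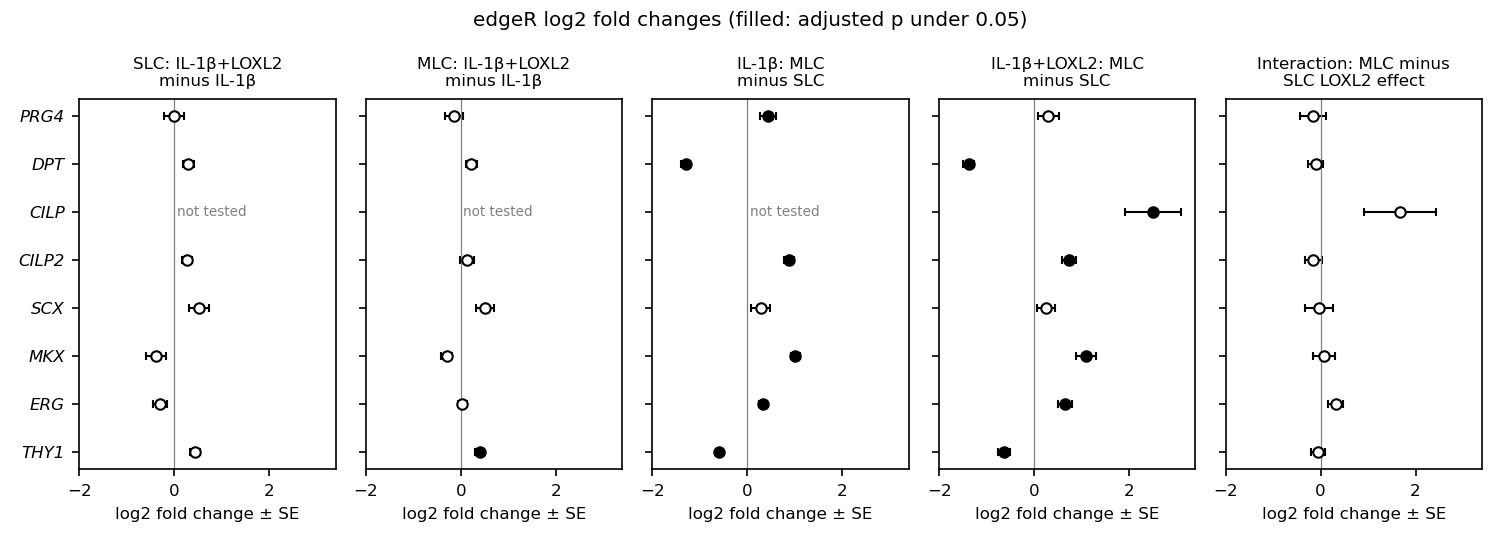
Log2 fold changes (horizontal axis) with standard errors from edgeR for the genes tested in each comparison, filled where the adjusted p was under 0.05; CILP could be tested in the layer comparison with LOXL2 and in the interaction. DPT (-1.30 and -1.38) and THY1 (-0.59 and -0.63) lie on the SLC side of both layer comparisons, CILP2, MKX and ERG lie on the MLC side, and of the LOXL2 comparisons THY1 in MLC (0.40) is the filled point.

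The comparison of IL-1β + LOXL2 with IL-1β addressed the effect of LOXL2 on these genes. In MLC, THY1 was 1.32-fold higher with the LOXL2 label, and no other of the 7 genes tested passed, where 21.6% of 13664 genes did (9.81% higher and 11.8% lower). In SLC none of the 7 genes tested passed, where 0.0% of 14103 genes did with edgeR. At an unadjusted p under 0.05, 4 of the 7 (CILP2, DPT, SCX and THY1) were found in SLC, where 43.3% of genes were, and DESeq2's Wald test called 1 of the 7 (THY1, adjusted p = 0.00751), where it called 31.9% of genes. The fit on all 12 libraries called 2 in SLC (THY1 and DPT), where 41.0% of genes passed, and 0 in MLC, where 0.0% did. In MLC the number was 2 with the gene-span trend removed (THY1 and ERG), where 14.7% of genes passed, and 2 with no filter on low counts or with the replicate number as a block (THY1 and SCX in both), where 18.3% and 29.7% passed.

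THY1 was measured at 8488, 8002 and 8091 normalized counts with IL-1β and 9926, 11659 and 11693 with LOXL2 in SLC. In MLC it was 5497, 5370 and 5223 with IL-1β and 6269, 7506 and 7512 with LOXL2. In both layers all LOXL2 values lay above all IL-1β values, with the first LOXL2 replicate the lowest of its group. The log2 values were 0.44 (standard error 0.11, adjusted p = 0.0706, edgeR) in SLC and 0.40 (standard error 0.095, adjusted p = 0.0214, edgeR) in MLC. The MLC call was lost in 5 of 6 fits that left out 1 library (adjusted p from 0.0543 to 0.111), passed without the first IL-1β + LOXL2 replicate (log2 0.49), and was lost in the fit on all 12 libraries (0.174). With the gene-span trend removed the values were 0.19 in SLC (adjusted p = 0.15) and 0.23 in MLC (adjusted p = 0.049).

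No matrix gene passed the test for LOXL2. DPT gave 2578, 2435 and 2704 normalized counts in SLC with LOXL2 against 1981, 1987 and 2313 without, groups that did not overlap, with a log2 value of 0.30 (standard error 0.11, adjusted p = 0.085, edgeR). In MLC it gave 942.0, 991.7 and 1002 against 976.2, 725.5 and 818.9, which overlapped (0.22, adjusted p = 0.178, edgeR). CILP2 gave 279.9, 282.2 and 300.5 against 228.7, 241.5 and 248.4 in SLC, again without overlap (0.27, standard error 0.11, adjusted p = 0.111, edgeR, and 0.093 with the gene-span trend removed). The CILP2 groups overlapped in MLC, at 416.0, 471.4 and 542.5 with LOXL2 (0.13, adjusted p = 0.494, edgeR). Groups that did not overlap were common in SLC, where 49.0% of genes showed them, and 41.4% did in MLC.

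PRG4 had nearly the same mean with and without LOXL2 in SLC, 82.1 ± 17.9 and 82.7 ± 9.67 normalized counts (SD, n = 3 each), and 100.4 ± 13.9 and 111.1 ± 20.8 in MLC. The log2 value was -0.0037 (standard error 0.21, adjusted p = 0.99, edgeR) in SLC and -0.15 (standard error 0.19, adjusted p = 0.589, edgeR) in MLC. In these comparisons effects well beyond 1 standard error in either direction could not be told from 0. In SLC, where 0.0% of 14103 genes passed, SCX at 0.52 with the same standard error of 0.21 did not pass (adjusted p = 0.0975, edgeR). Nor did THY1 there, at far higher counts and 0.44 with a standard error of 0.11 (adjusted p = 0.0706, edgeR). TPR, a nuclear pore gene whose end overlaps that of PRG4, had values of -0.60 (adjusted p = 0.0706, edgeR) in SLC and -0.47 (adjusted p = 0.0235, edgeR) in MLC.

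The tendon factors SCX and MKX lay on opposite sides of 0 in both layers, and neither passed the test. SCX was 171.9, 153.1 and 156.1 normalized counts in SLC with LOXL2 against 80.8, 136.2 and 117.7, groups that did not overlap, and 151.5, 202.6 and 219.8 against 161.4, 140.0 and 103.9 in MLC. The log2 fold change of SCX was 0.52 (standard error 0.21, adjusted p = 0.0975, edgeR) in SLC and 0.50 (standard error 0.19, adjusted p = 0.0781, edgeR) in MLC. BOP1, which surrounds SCX, had values of 0.54 (adjusted p = 0.0706, edgeR) and 0.18 (adjusted p = 0.283, edgeR). MKX was 287.6, 168.2 and 232.1 normalized counts with LOXL2 in SLC and 536.6, 474.0 and 443.7 in MLC, and every MLC value lay below those with IL-1β alone. The log2 fold change of MKX was -0.38 (standard error 0.21, adjusted p = 0.199, edgeR) in SLC and -0.30 (standard error 0.11, adjusted p = 0.0705, edgeR) in MLC. With the gene-span trend removed MKX was -0.085 and -0.084 and SCX was 0.25 and 0.30 in SLC and MLC.

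ERG was 822.8, 604.9 and 692.1 normalized counts with LOXL2 in SLC and 1123, 1132 and 1072 in MLC. These values overlapped those with IL-1β alone in both layers (log2 fold change -0.30, adjusted p = 0.153 in SLC and 0.034, adjusted p = 0.804 in MLC, edgeR). With the gene-span trend removed, ERG, which has the longest span of these genes at 322032 bases, had values of 0.15 in SLC (adjusted p = 0.285) and 0.34 in MLC (adjusted p = 0.0289).

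Leaving out the first SLC IL-1β + LOXL2 replicate raised the number of genes of this set past the threshold in SLC from 0 to 4, and 61.7% of all genes then passed. These were THY1 (log2 0.51, adjusted p = 0.00047, edgeR), ERG (-0.43, 0.0055), MKX (-0.59, 0.00923) and DPT (0.29, 0.0238). Leaving out the first MLC IL-1β + LOXL2 replicate gave 3, namely SCX (0.65, adjusted p = 0.00509, edgeR), MKX (-0.37, 0.0055) and THY1, where 48.1% of genes passed. Over all genes, the log2 fold change of LOXL2 had a rank correlation with gene span of -0.492 in SLC and -0.488 in MLC, against -0.12 and 0.0744 in the layer comparisons. Within this set the shortest spans, SCX (4004 bases) and THY1 (5982 bases), had the highest log2 values and MKX (69351 bases) the lowest in both layers. Other genes did not follow this order, with PRG4 (15213 bases) below the longer DPT (36793 bases) in both layers and ERG (322032 bases) at 0.034 in MLC. The part of span in these values was not tested beyond removal of its trend.

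**Figure D3:**
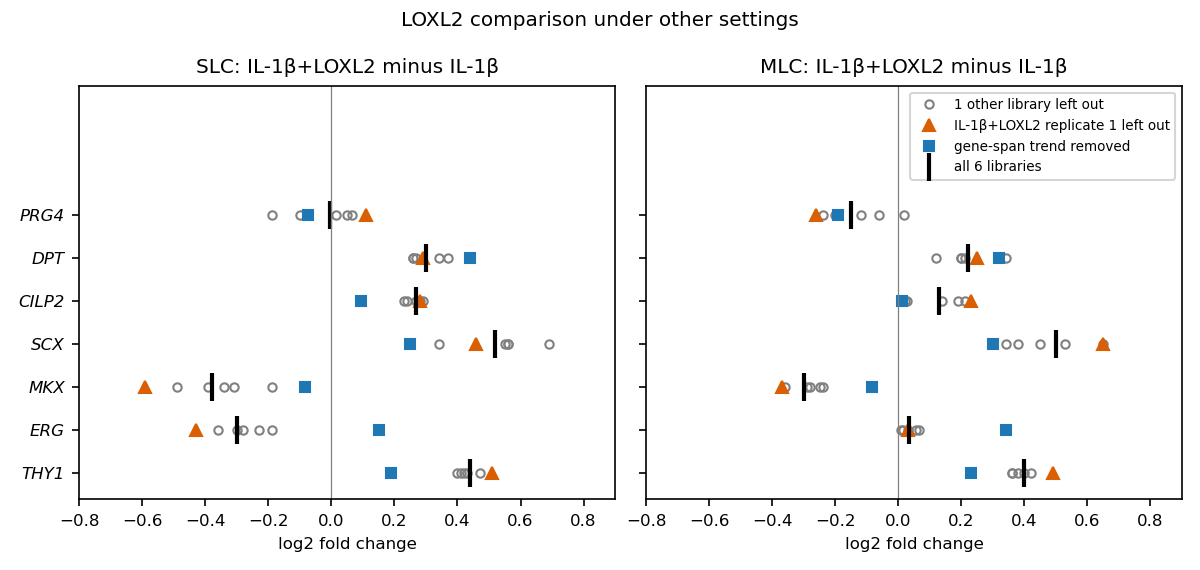
Log2 fold changes of IL-1β + LOXL2 over IL-1β (horizontal axis) for 7 genes in SLC and MLC with all 6 libraries (black bars), with 1 library left out (circles, and triangles for the first IL-1β + LOXL2 replicate) and with the gene-span trend removed (squares). Removal of the trend brings SCX, MKX, CILP2 and THY1 nearer to 0 in both layers, takes DPT (0.44 and 0.32) and PRG4 (-0.075 and -0.19) farther from it, and moves ERG to 0.15 in SLC and 0.34 in MLC.

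The LOXL2 effect was not shown to differ between the layers for any of these genes. The interaction of layer and LOXL2, fitted on all 12 libraries, called 0 of 8 genes with edgeR and 0 with DESeq2, where 0.0% of 14534 genes passed. At an unadjusted p under 0.05 it found CILP (1.68, standard error 0.76, adjusted p = 0.959, edgeR), where 2.26% of genes were found. CILP had 1 to 16 counts a library and passed the filter through the libraries where it is higher, so its value is a description, and 0 of the other 7 genes were found. The values were -0.16 (standard error 0.28) for PRG4, 0.32 (standard error 0.16) for ERG and -0.053 (standard error 0.14) for THY1.

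Genes that act around this set were described by lists written from general knowledge. Of 17 signals and transcription factors known to act on PRG4, 15 could be tested. In the IL-1β libraries 4 were higher and 7 lower in MLC (median log2 -0.12, against -0.0069 over all genes tested), where 24.2% of all genes were higher and 22.7% lower. CREB5, a transcription factor that drives lubricin expression in articular chondrocytes, was 124.3 ± 12.0 normalized counts (SD, n = 3) in SLC and 349.9 ± 40.0 (SD, n = 3) in MLC, 2.84-fold higher in MLC (adjusted p = 1.69e-07, edgeR). It was 3.00-fold higher with LOXL2 (adjusted p = 0.000831, edgeR). NFATC2 was 3.62-fold higher in MLC, and EGFR and SMAD3 were 2.81-fold and 1.49-fold higher in SLC. With LOXL2, 3 of the 15 were higher and 2 lower in MLC, where 9.27% and 6.83% of genes were, including TGFB1, which was 1.48-fold higher in MLC.

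In the comparison of LOXL2 within MLC, 5 of these 15 regulators fell and none rose, where 11.8% of genes fell. They included FOXO3 (1600 ± 56.7 to 1084 ± 222.5 normalized counts, SD, n = 3 each, adjusted p = 0.0205, edgeR), CREB5 (349.9 ± 40.0 to 243.9 ± 22.1, adjusted p = 0.0239, edgeR), SMAD3 and TGFBR1. The median log2 value of the list was -0.32, against 0.0079 over all genes. These counts differed between settings. With the gene-span trend removed 1 of the 15 fell (median -0.073), where 6.86% of all genes did, and in the fit on all 12 libraries 0 did, where 0.0% of all genes passed. Without the first IL-1β + LOXL2 replicate of MLC 2 rose and 10 fell, where 23.7% and 24.4% of all genes did.

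In SLC 0 of 15 regulators passed, where 0.0% of all genes did, with a median of -0.48 that became -0.12 with the gene-span trend removed, and the 2 with the highest counts had adjusted p of 0.0706 (TGFBR2, log2 -0.48) and 0.0825 (YAP1, -0.50). In the fit on all 12 libraries 1 of 15 regulators rose and 9 fell in SLC, where 22.5% and 18.5% of all genes did. Without the first IL-1β + LOXL2 replicate of SLC 2 of 16 regulators rose and 12 fell, where 31.0% and 30.8% of all genes did.

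Of 16 known binding partners and relatives of the proteins of this set, 15 could be tested, and in the IL-1β libraries 6 were higher and 5 lower in MLC, where 24.2% and 22.7% of all genes were. DCN (decorin, which dermatopontin binds) was 2.05-fold higher in MLC, on the opposite side from DPT, at 52411 ± 4907 normalized counts against 25888 ± 555.0 (SD, n = 3 each). IGF1, a growth factor that CILP is known to oppose, was 27.62-fold higher in SLC, with 1595 ± 128.7 normalized counts against 57.0 ± 18.4 (SD, n = 3 each, adjusted p = 5.41e-12, edgeR). ITGB3, an integrin subunit, was 3.95-fold higher in SLC, and LRP8 was 2.53-fold higher in MLC. With LOXL2 3 were higher and 2 lower in MLC (9.27% and 6.83% of all genes), with IGF1 19.64-fold higher in SLC and DCN 2.01-fold higher in MLC. In the comparison of LOXL2 within MLC 4 of the 15 fell (TCF12, ITGAV, LRP8 and IGF1R, with log2 values of -0.53, -0.52, -0.51 and -0.29), where 11.8% of all genes fell, and 1 fell with the gene-span trend removed. In SLC 0 passed, where 0.0% of all genes did. In the fit on all 12 libraries 0 of the 15 rose and 5 fell in SLC, where 22.5% and 18.5% of all genes did.

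Other fibrous genes were split between the layers. Of 23 tendon and fibrous matrix genes, 20 were tested in the IL-1β libraries, where 7 were higher and 8 lower in MLC beside 24.2% and 22.7% of all genes. COL12A1, a collagen of fibril surfaces, was 2.40-fold and EYA2 2.52-fold higher in MLC, whereas SIX2 was 2.23-fold and TNXB 4.21-fold higher in SLC. With LOXL2, 5 of 21 were higher and 6 lower in MLC beside 9.27% and 6.83% of all genes. Of 13 fibroblast and stromal genes tested, 3 were higher and 6 lower in MLC with IL-1β, and 3 and 5 with LOXL2, against the same shares of all genes. The median log2 value of this list was -0.036 with IL-1β, against -0.0069 over all genes tested, and -0.39 with LOXL2, against -0.031. DCN, which is in this list too, was among the 3 higher in MLC with IL-1β (2.05-fold). On the SLC side with DPT and THY1 lay MFAP5 (8.60-fold higher in SLC, 3971 ± 223.3 against 455.1 ± 41.1 normalized counts, SD, n = 3 each), FBLN2 (3.26-fold), DPP4 (3.46-fold) and CD34 (7.02-fold). CD34 and TNXB were low, at 24.8 and 18.5 normalized counts in SLC and 3.42 and 4.14 in MLC with IL-1β. Both passed the filter on low counts through the SLC libraries where they are higher, so their values are a description.

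Markers of other cells moved with layer too. Of 14 chondrocyte genes tested, 10 were higher and 1 lower in MLC with IL-1β (median log2 1.19), where 24.2% and 22.7% of all genes were, and 9 and 1 with LOXL2, where 9.27% and 6.83% were. COL2A1 and COL9A1, which are among those higher in MLC, had at most 1 count in any SLC library. They passed the filter on low counts through the MLC libraries where they are higher, so their part in these numbers is a description. None of the 7 pericyte and smooth muscle genes tested was higher in MLC, and 6 were lower with IL-1β (22.7% of all genes) and 3 with LOXL2 (6.83% of all genes). ABCC9, KCNJ8 and ACTA2 were 5.46-fold, 2.47-fold and 1.89-fold higher in SLC with IL-1β, and the 10 genes of that list summed to 55557 to 68550 normalized counts in SLC and 41069 to 44709 in MLC. Of 4 immune genes tested, CD14 was 1.40-fold higher in MLC with IL-1β and none passed with LOXL2. Of 4 osteoblast genes tested with IL-1β, SPP1 was 7.24-fold higher in MLC, and RUNX2 and ALPL were 1.46-fold and 2.03-fold higher in SLC. ALPL was low, at 18.4 normalized counts in SLC and 8.83 in MLC. Pericytes also carry THY1, and their part in the THY1 values was not tested.

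With LOXL2 in MLC, 3 of 7 pericyte and smooth muscle genes rose, namely ACTA2, TAGLN and CNN1 (log2 0.54, 0.53 and 0.52, adjusted p of 0.0193, 0.0194 and 0.0229, edgeR), beside the rise of THY1, where 9.81% of all genes rose. The median of the list was -0.033, and the other 4 genes tested lay below 0. Its sum, most of it from ACTA2 and TAGLN, came to 41069 to 44709 normalized counts with IL-1β and 52606 to 69168 with LOXL2, and to 55557 to 68550 and 71638 to 81347 in SLC. In MLC 3 of 12 fibroblast genes also rose (S100A4, MFAP5 and FBLN2) and PDGFRA fell. Of 19 tendon genes 3 fell (COL12A1, TNC and COL5A1), and of 13 chondrocyte genes COMP rose and SOX5 and SOX6 fell. Among all genes 11.8% fell, and the falls in the tendon and chondrocyte lists were near that share. EGFL7 rose by 0.59 on the log2 scale, 1 of 3 endothelial genes tested, and 0 of 4 immune and 0 of 3 osteoblast genes passed. In SLC 0 genes passed in each of these lists, as 0.0% of all genes passed there. With the gene-span trend removed, the counts in MLC were 3 of 7 pericyte and smooth muscle genes higher, 4 fibroblast genes higher and 1 lower, and 2 tendon genes lower, where 7.79% of all genes were higher and 6.86% lower. Without the first IL-1β + LOXL2 replicate of MLC, 3 pericyte and smooth muscle genes rose and 2 fell, 5 fibroblast genes rose and 2 fell, and 2 tendon genes rose and 9 fell, where 23.7% of all genes rose and 24.4% fell. No gene of a list passed in MLC in the fit on all 12 libraries. In SLC that fit called 2 pericyte and smooth muscle genes higher and 0 lower, and 4 fibroblast genes higher and 2 lower. It called 3 tendon genes higher and 6 lower in SLC, where 22.5% of all genes were higher and 18.5% lower.

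**Figure D4:**
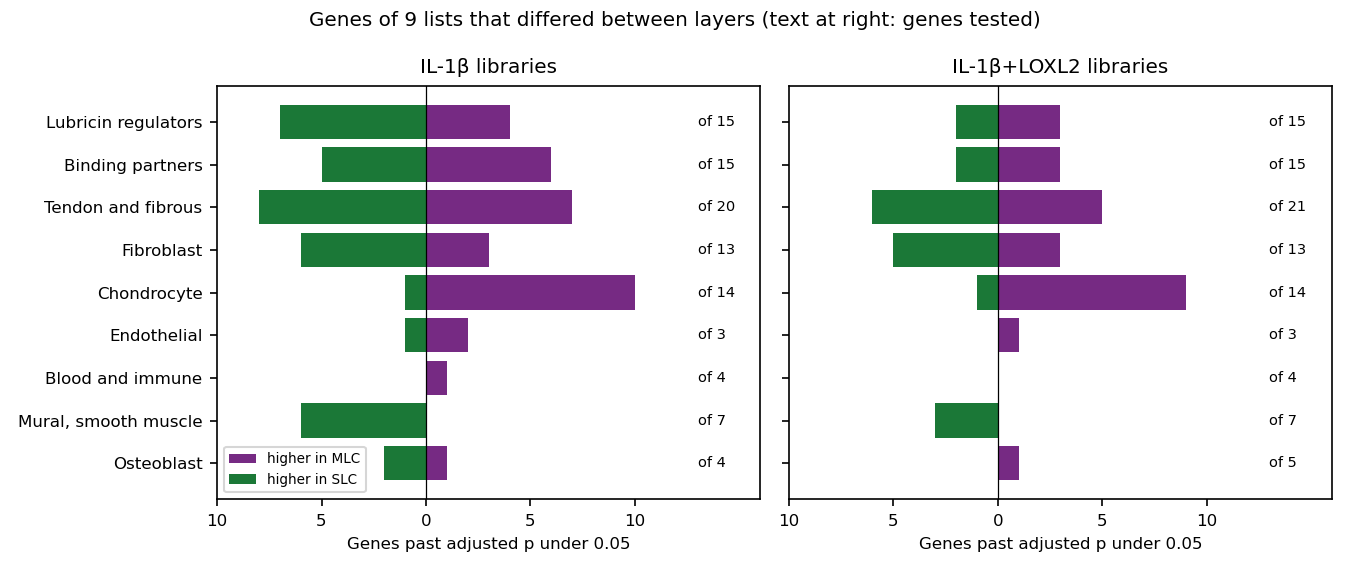
Number of genes of 9 lists past the adjusted p threshold between the layers (horizontal axis, higher in MLC to the right of 0 and higher in SLC to the left), in the IL-1β and the IL-1β + LOXL2 libraries, with the number tested at the right. The chondrocyte list has 10 genes higher in MLC and 1 higher in SLC with IL-1β, and the pericyte and smooth muscle list has 0 and 6. Some low genes, among them COL2A1, COL9A1, CD34 and TNXB, passed the filter on low counts through the layer where they are higher.

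Across the 12 libraries the levels (log2 CPM) of DPT and THY1 had a Pearson correlation of 0.892, that of MKX with THY1 was -0.93 and that of DPT with MKX -0.945. Within the 6 SLC libraries these were 0.811, -0.758 and -0.585, and within the 6 MLC libraries 0.718, -0.931 and -0.891. The libraries of a layer share their cells and treatments, so these values are a description and carry the group differences given above. The genes whose log2 CPM followed PRG4 best over the 12 libraries were CORO1A (0.846), PM20D1 (0.839), RCN2 (0.834), KIAA0319L (0.832) and GMEB1 (0.83), where the 99th percentile over 14534 genes was 0.728. Within SLC these 5 had values from 0.732 to 0.985 and within MLC from 0.523 to 0.76 (n = 6 each). The 5 were picked as the highest values in the same 12 libraries, so their place above that percentile was fixed by the pick and is no test. No gene of this set was among the 5.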

How the data were processed

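Goat TMJ cells gave 12 RNA-seq libraries, 3 of each combination of layer and label. The authors deposited raw read counts per gene, 1 table a layer, made by mapping paired-end reads of RNA purified on poly-T beads to the goat genome ARS1.2. HISAT2 and featureCounts are named in the submitters' processing notes, and settings for strand and multiply mapped reads are not given in the sources used here. Library totals ranged from 14158607 to 28931652 counts, and intervals from them would cover counting error only. Replicates of every group differed by more than counting noise (a chi-square of at least 2.23 times its degrees of freedom).

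Tests used edgeR 4.0.16 under R 4.3.3 (TMM scaling, filterByExpr at a count of 10 and a total of 15, quasi-likelihood F test, no replicate block, Benjamini-Hochberg adjustment over all genes tested, threshold 0.05) in the 6 libraries of a comparison, or in 12 for the interaction. Standard errors were derived from F as the absolute log2 value over its root. Normalized counts came from DESeq2 1.42.0 over the 12 libraries. A two-sided exact permutation test of 3 against 3 libraries cannot go below 0.1 and decided no call. Positions are from the RefSeq annotation of ARS1.2, which matched 28884 of 28910 symbols.

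The genes and lists were chosen with earlier results of these data known. Named are the 9 genes, LOXL2, at most 4 genes a list and comparison (those past the threshold with the largest change, otherwise the 2 with the highest counts) and the 5 genes closest to PRG4 over the 12 libraries by Pearson correlation of log2 CPM (prior count 2). BOP1 and TPR were named for their overlap, and COL9A1, TNMD and other markers as checks of the cell types. Alternatives were DESeq2's size factors and Wald test, other filters on low counts, a fit on all 12 libraries, a replicate block, omission of single libraries, a log2 change of at least 1, and removal of the gene-span trend, for which a lowess curve (smoother span 0.3) of log2 CPM on genomic span was fitted in every library and entered as an offset. Same-numbered libraries deviated together in the layer comparison with LOXL2 (correlations of 0.605, 0.206 and 0.168) and not in the others. In that comparison SLC replicate 2 and MLC replicate 3 had a correlation of 0.45, above 0.206 and 0.168. The deviations thus did not follow the replicate number alone, and the numbers are not said to mark a shared animal or day. List counts under other settings were added after the data were seen. The scripts were tested on simulated counts.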

Additional observations from a re-analysis of the deposited data

How the results depend on the processing

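The number of these genes past the threshold moved with the setting. For LOXL2 in MLC it was 1, and 0 in the fit on all 12 libraries or when a log2 change of 1 or more was required, and 2 with the gene-span trend removed (THY1 and ERG), with no filter on low counts or with the replicate block (THY1 and SCX in both). For LOXL2 in SLC it was 0, and 1 with DESeq2's Wald test and 2 in the fit on all 12 libraries (THY1 and DPT). Requiring a log2 change of 1 or more left 2 genes in the layer comparison with IL-1β and 3 in that with LOXL2. With 1 library left out the number ranged from 0 to 4 for LOXL2 in SLC, from 0 to 3 in MLC, from 5 to 6 and from 1 to 6 in the layer comparisons with IL-1β and with LOXL2, and it was 0 in all 12 interaction fits. The replicate block left the 6 calls of the layer comparison with LOXL2 and raised the share of all genes past the threshold from 16.1% to 27.6%. In the layer comparison with IL-1β it ended the PRG4 call (adjusted p = 0.0535, edgeR). The cause of these shifts was not tested.

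Some values changed sign, and apart from ERG in SLC these were near 0. With the gene-span trend removed, ERG for LOXL2 in SLC was 0.15, against -0.30 (standard error 0.15) without its removal. The interaction was then -0.0034 for MKX, 0.064 for SCX and 0.048 for THY1. PRG4 for LOXL2 in SLC was 0.014 in the fit on all 12 libraries. With 1 library left out, PRG4 ranged from -0.19 to 0.11 in SLC and from -0.26 to 0.018 in MLC, and the interaction from -0.28 to 0.039 for PRG4, -0.20 to 0.026 for DPT, -0.11 to 0.27 for MKX, -0.20 to 0.15 for SCX and -0.13 to 0.034 for THY1. Of 519 values of single genes under an alternative, 454 kept their direction and side of the threshold, 33 lost a call, 12 gained one and 20 changed sign. Depth limits CILP, with at most 16 counts in a library.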
